A study of Mus musculus with 25 samples.

Results

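FTY720 given to mice whose chest had been irradiated was compared with irradiation without the compound, by array measurement of lung RNA. The 6 arrays, of 25 in all, were taken by their titles: 3 for radiation with FTY (called radiation+FTY below) and 3 for radiation alone (radiation). Every mouse was a female wildtype C57BL/6J animal, 14 to 17 weeks old and 20 to 25 g in weight. Both groups received a single 25 Gy dose to the thorax. The radiation+FTY mice also received 0.1 mg/kg FTY720 by intraperitoneal injection 2 times per week. The labels of the radiation group name no vehicle injection, so the compound and the injections cannot be told apart. They give neither the time from irradiation to collection nor a batch. Beside these stood 3 arrays each of irradiated mice given SEW-2871 (radiation+SEW) or (S)-FTY-phosphonate (radiation+fTyS) at the same dose and schedule, 3 of unirradiated mice given FTY720 (FTY), and 4 of mice given PBS (control). Each array held RNA of 1 mouse, so a p-value measures the spread between mice.

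FTY720 (fingolimod) resembles sphingosine. Sphingosine kinases phosphorylate it in the body, and the phosphate binds receptors for sphingosine 1-phosphate (S1P), a lipid in blood that acts through receptors on endothelial cells, lymphocytes and other cells. In the lung S1pr1 on endothelium keeps the barrier tight, and on lymphocytes it governs exit from lymph nodes; sustained exposure to phosphorylated FTY720 takes S1pr1 off the cell surface. Thoracic irradiation of mice causes pneumonitis with leak, influx of leukocytes and later fibrosis, and S1P analogs have been tested against that injury.

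Levels are given as log2(signal + 16), where signal is the deposited intensity of a probe set, and differences are log2 fold changes on that scale, which understate changes of dim genes. Array medians of the signal lay between 118.05 and 129.28. Lung identity held on all 25 arrays: the mean of the 13 alveolar type 2 markers lay between 11.87 and 12.41 and that of the 10 alveolar type 1 markers between 12.08 and 12.36. Skeletal muscle markers (19 genes, mean 6.32 to 12.15 over all arrays) were high on radiation+FTY replicates 1 and 3, at 11.69 and 11.25, against 6.99 on replicate 2 and 6.32, 8.54 and 6.64 on the radiation arrays. Control replicate 4 had a mean for 23 p53 target and DNA damage genes inside the range of the 12 irradiated arrays (9.88 to 10.02) and above the other 12 unirradiated ones (9.39 to 9.54). FTY replicate 3 stood apart in T cell genes, with a mean of 9.39 against 7.28 to 8.02 on the other 24 arrays, and in cell cycle genes, at 9.71 against 8.21 to 9.04.

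Adding FTY720 to radiation raised 251 genes and lowered 140 of 12937 tested, at an adjusted p of at most 0.05; these 391 calls are 3.02% of the genes tested. The genes that rose were led by mesothelial markers and included enzymes of sterol synthesis, and those that fell included the nuclear receptor gene Nr4a3, the matrix gene Thbs1 and receptors of myeloid cells. Changes were small: 15 called genes moved more than 2-fold, 8 up and 7 down, and the median width of a confidence interval at the 95% level was 0.222 to either side. At an unadjusted p under 0.05 there were 3008 genes. The excess of increases depended on the scaling and on single arrays. After quantile normalization 210 rose and 214 fell, and after median centring 139 rose and 175 fell. Without radiation+FTY replicate 3, 193 rose and 279 fell, and without radiation replicate 3, 80 rose and 105 fell. More rose than fell without each of the other arrays of these 2 groups. The 3 arrays of 1 group lay wholly above those of the other for 27.7% of the genes tested, 17.6% with radiation+FTY higher and 10.1% with it lower. The calls lean on the spread estimated over all 25 arrays, since a fit of only these 6 arrays called 6 genes. Without radiation+FTY replicates 1, 2 and 3 in turn it was 38, 158 and 472 genes, and without radiation replicates 1, 2 and 3 it was 93, 187 and 185.

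**Figure D1:**
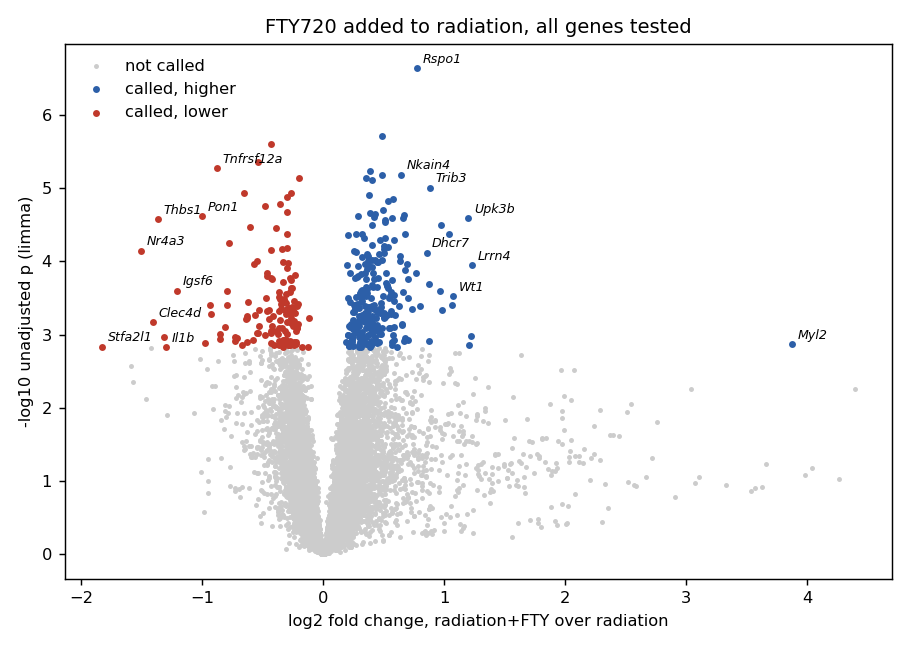
Each point is 1 of the 12937 genes tested, with the log2 fold change of radiation+FTY over radiation (3 mice each) on the x axis and -log10 of the unadjusted limma p on the y axis. The 251 genes called higher are blue and the 140 called lower are red; Myl2 stands apart at the right, and many grey points with large increases did not pass the test.

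Of the 44 gene lists examined, the mesothelial markers had the most called members. The mesothelium is the cell sheet on the outer face of the lung and the lining of the chest cavity. Of 20 genes on the list 19 were tested, and 11 rose and none fell, against 1.94% of all genes called higher. The median log2 fold change of the 19 was 0.70, against 0.03 over all genes tested. Of the 19, 15 did not overlap between the groups with radiation+FTY higher, against 17.6% of all genes. With it lower was 1, Slc39a8, against 10.1% of all genes.

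Upk3b, a uroplakin of the mesothelial surface, read 9.74, 9.46 and 9.22 on the radiation arrays and 10.57, 10.47 and 10.98 with FTY720. The groups were apart, with a gap of most of a log2 unit. The increase was 2.30-fold (log2 1.201 ± 0.22 SE, adjusted p = 0.0107), and it was called in each fit that left out 1 array. Aldh1a2, which makes retinoic acid, read 9.32, 9.48 and 9.34 without the compound and 10.22, 10.37 and 10.47 with it, again with no overlap. It rose 1.96-fold (0.97 ± 0.18 SE, adjusted p = 0.0116). Rspo1, a secreted amplifier of Wnt signalling, read 8.87, 8.98 and 8.83 against 9.46, 9.71 and 9.83, and had the smallest p of all genes (0.78 ± 0.10 SE, adjusted p = 0.00303). Lrrn4 (1.23 ± 0.26 SE, adjusted p = 0.0177) read 8.16, 8.46 and 8.34 against 9.47, 9.501 and 9.69. Wt1, the transcription factor of mesothelium and its precursors, read 6.96, 7.12 and 6.86 against 7.90, 7.79 and 8.47. Its increase was 2.11-fold (1.08 ± 0.25 SE, adjusted p = 0.0276). Fras1 rose by 1.04, Bnc1 by 0.99, Sulf1 by 0.70, Nkain4 by 0.65, Gpm6a by 0.44 and Efemp1 by 0.20. Bnc1 lost the call without each of the 6 arrays in turn. Lrrn4 and Wt1 were not called without radiation replicate 1 or without radiation+FTY replicate 1, nor Wt1 without replicate 3 of either group. Fras1, Sulf1, Gpm6a and Efemp1 were not called without radiation replicate 1. Gpm6a and Efemp1 were also not called without radiation replicate 3 or radiation+FTY replicate 2, nor Gpm6a without radiation+FTY replicate 3. The mesothelial antigens Msln (0.75, adjusted p = 0.134) and Muc16 (0.98, adjusted p = 0.15) were not called, nor was Krt19 (0.16, adjusted p = 0.5). Msln read 9.70 on radiation replicate 1 and 8.97 and 8.86 on the other 2, and 9.79, 10.02 and 9.96 on the radiation+FTY arrays, so that the groups were apart by little.

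The list's mean set each radiation array (9.44, 9.48 and 9.38) below each radiation+FTY array (9.99, 10.04 and 10.18). Control arrays read 9.44 to 9.83 and FTY arrays at 9.83, 9.57 and 9.75. In whole lung, more cells of a type and more RNA per cell cannot be told apart. Muscle and fat markers moved with the same arrays in part: all 19 skeletal muscle genes were higher in the radiation+FTY group mean, with a median log2 fold change of 2.72 and no call. Muscle signal was uneven in other groups too: of the arrays of unirradiated mice, control replicate 2 had a mean of 10.88, and 2 of 3 given SEW-2871 (11.33 and 11.28) and 2 of 3 given (S)-FTY-phosphonate (12.15 and 9.85) were high. The 16 fat markers had means of 7.96, 8.90 and 8.39 without FTY720 and 10.65, 9.19 and 9.95 with it, a median change of 1.70, also with no call. The 19 cardiac markers read 8.89, 10.02 and 9.89 against 11.42, 9.47 and 10.07. Radiation+FTY replicate 2, with skeletal and cardiac muscle means inside the range of the radiation arrays, had a mesothelial mean of 10.04, in the middle of its group. Its fat mean of 9.19 was above each radiation array, so this array does not separate mesothelial from fat signal. With muscle and fat means as covariates 6 of the 19 mesothelial genes were called, with a median of 0.48, and Upk3b, Aldh1a2, Rspo1 and Nkain4 were among them.

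Myl2, the ventricular myosin light chain, shows the other pattern. It read 5.38, 5.46 and 5.25 on the radiation arrays and 10.77, 5.59 and 11.36 on the radiation+FTY arrays. The gene passed the filter on mean level (6.49) through arrays on which it was high, and the radiation arrays and radiation+FTY replicate 2 lay below that level, so the size of the difference (3.88 ± 1.04 SE, adjusted p = 0.048) is not well set. It rests on replicates 1 and 3, and the gene was not called when either of these, or any radiation array, was left out. Mtfp1, a mitochondrial fission gene, had the same order of arrays, at 9.26, 8.18 and 9.27 with FTY720. It rose by 1.202 ± 0.32 SE (adjusted p = 0.0483), a call lost with the muscle and fat covariates. The call was also lost without each of 5 of the 6 arrays in turn, with median centring and with all probe sets averaged. All 22 oxidative phosphorylation genes were higher in the group mean, by a median of 0.43, and none was called.

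**Figure D2:**
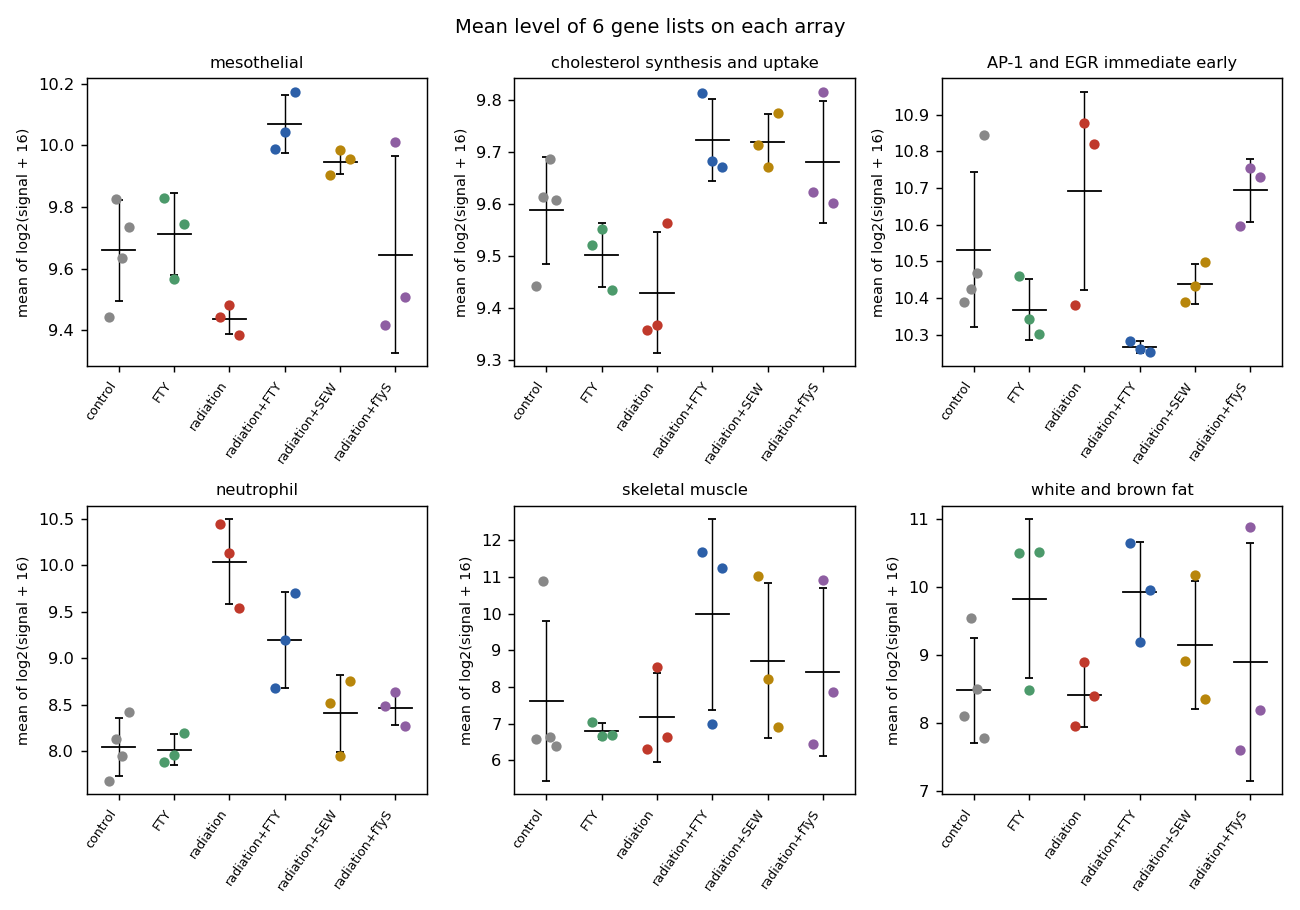
Points are arrays, grouped by treatment on the x axis, and the y axis is the mean of log2(signal + 16) over the tested genes of a list; bars mark group means and whiskers 1 SD (n = 3, control n = 4). The mesothelial mean separates the radiation+FTY from the radiation arrays, while skeletal muscle is high on 2 of 3 radiation+FTY arrays and on 1 array each of control, radiation+SEW and radiation+fTyS.

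Sterol synthesis genes were the second group to rise. Cells make cholesterol through a chain of enzymes whose genes are switched on by the SREBP transcription factors when sterol in the endoplasmic reticulum is low. Of 20 genes tested 5 rose and none fell, against 1.94% of all genes called higher, and the median log2 fold change was 0.25. By the probe set used for each gene, all 20 were higher in the group mean, while 44.4% of all genes tested were lower. The promoters of called members are shown because SREBP acts at such promoters together with the factor NF-Y, which binds the CCAAT box. Each sequence runs from 250 bases before the start of the gene up to that start (RefSeq, GRCm38.p6), with matches in capitals. The letters searched, on both strands, were CCAAT and, as a short form of the SREBP element, CACNCCAC; no 2 matches overlapped.
Cyp51: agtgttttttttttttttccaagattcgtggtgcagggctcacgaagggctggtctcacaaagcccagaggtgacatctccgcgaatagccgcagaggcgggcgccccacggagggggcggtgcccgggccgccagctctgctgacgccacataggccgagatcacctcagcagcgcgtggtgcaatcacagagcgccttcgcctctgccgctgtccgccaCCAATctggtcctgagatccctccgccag
Insig1: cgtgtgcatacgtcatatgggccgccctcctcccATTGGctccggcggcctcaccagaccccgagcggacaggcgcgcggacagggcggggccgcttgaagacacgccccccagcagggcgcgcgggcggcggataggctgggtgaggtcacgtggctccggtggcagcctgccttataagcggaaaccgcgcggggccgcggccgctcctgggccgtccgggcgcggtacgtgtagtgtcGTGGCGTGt
Nsdhl: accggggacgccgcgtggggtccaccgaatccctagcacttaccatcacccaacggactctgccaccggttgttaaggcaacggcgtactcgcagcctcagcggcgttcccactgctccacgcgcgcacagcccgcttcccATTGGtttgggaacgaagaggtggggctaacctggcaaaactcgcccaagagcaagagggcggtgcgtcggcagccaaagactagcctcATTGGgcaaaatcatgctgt
Dhcr7: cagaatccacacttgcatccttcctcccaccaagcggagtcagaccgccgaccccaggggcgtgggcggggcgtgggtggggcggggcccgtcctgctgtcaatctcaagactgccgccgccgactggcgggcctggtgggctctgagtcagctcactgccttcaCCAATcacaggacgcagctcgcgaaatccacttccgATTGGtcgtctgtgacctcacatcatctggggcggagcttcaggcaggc
Cyp51 lies at chr5:4104698-4104947 on the minus strand, Insig1 at chr5:28071162-28071411, Nsdhl at chrX:72918271-72918520 and the window of Dhcr7 with a match at chr7:143829964-143830213, all on the plus strand. Windows were found for 4 of the 5 called genes, and Fdft1 had none. CCAAT was present for each of the 4, though for Dhcr7 in 1 of its 3 windows. It was found in 15 of 20 windows of list members (75.0%) and in 33.8% of all 32851 windows. CACNCCAC was found in Insig1, where the match ends next to the start, and in 5.29% of all windows. These matches are descriptions of the letters in this window.

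Dhcr7, which makes cholesterol in the last step of the pathway, read 7.195, 7.27 and 7.77 on the radiation arrays and 8.49, 8.23 and 8.08 with FTY720. The groups were apart and the increase was 1.81-fold (0.86 ± 0.17 SE, adjusted p = 0.0163). Fdft1, squalene synthase, read 9.79, 9.84 and 9.85 against 10.62, 10.40 and 10.45, with narrow spread in both groups (0.66 ± 0.15 SE, adjusted p = 0.0259). Cyp51, lanosterol demethylase, read 9.04, 9.49 and 9.75 against 10.12, 9.91 and 9.88 (0.54 ± 0.12 SE, adjusted p = 0.0276). Here radiation replicate 1 was the low array. Insig1, which holds SREBP in the endoplasmic reticulum and is itself an SREBP target, read 10.63, 10.999 and 11.11 against 11.69, 11.31 and 11.50 (0.59 ± 0.14 SE, adjusted p = 0.0319). Nsdhl rose by 0.40 ± 0.10 SE (adjusted p = 0.0418). Without radiation replicate 1, or without radiation+FTY replicate 1, none of these 5 genes was called, and with all probe sets averaged Fdft1, Cyp51 and Nsdhl were not. Nsdhl lost the call without each of the 6 arrays in turn. Fdft1 also lost it without radiation replicate 2 or 3. Insig1 lost it without radiation replicate 2 or radiation+FTY replicate 3, and Cyp51 without radiation+FTY replicate 2. Fdps (0.40), Lss (0.37), Sc5d (0.32), Idi1 (0.30), Mvk (0.30) and Hmgcs1 (0.20) did not pass, and Sqle (0.09), Srebf2 (0.05) and Mvd (0.03) were near 0. Another probe set of Mvd gave 0.61. For Mvk, Hsd17b7 and Msmo1 another probe set lay below 0 (-0.19, -0.10 and -0.09), while the other probe sets of Lss, Sc5d, Idi1 and Hmgcs1 lay above it.

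Of 17 fatty acid synthesis genes 2 rose, where 1.94% of all genes were called higher: Fads1, a fatty acid desaturase (0.31 ± 0.07 SE, adjusted p = 0.0204), and Srebf1, which encodes the SREBP form that drives lipid synthesis (0.46 ± 0.12 SE, adjusted p = 0.0469). Fads1 read 10.11, 10.15 and 10.21 against 10.40, 10.46 and 10.55, and Srebf1 read 10.44, 10.46 and 10.59 against 10.99, 10.91 and 10.97. Neither overlapped. Fads1 was not called without radiation replicate 1 or radiation+FTY replicate 1, and Srebf1 was not called without any 1 of the 6 arrays. The adipose enzymes on the list had larger differences without a call, such as Acacb (1.99, adjusted p = 0.089), Elovl6 (1.68, adjusted p = 0.246) and Thrsp (2.21, adjusted p = 0.214), and they stood beside the higher fat marker means given above, which had no call. With the muscle and fat covariates no sterol gene was called and their median change was 0.20, while 2 genes of the fatty acid list were called. The part of fat and muscle RNA in the sterol result was not tested beyond that fit.

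Nr4a3 and a set of matrix and wound-response genes fell. Nr4a3 encodes an orphan nuclear receptor induced early by many stimuli. It read 9.38, 9.53 and 9.34 on the radiation arrays and 7.78, 7.77 and 8.19 on the radiation+FTY arrays, more than 1 log2 unit apart. It fell 2.83-fold (-1.50 ± 0.30 SE, adjusted p = 0.0162). Thbs1, thrombospondin 1, a matrix protein that activates latent TGF-beta, read 10.67, 10.96 and 11.30 against 9.17, 9.57 and 10.10. It fell 2.57-fold (-1.36 ± 0.25 SE, adjusted p = 0.0107), and its groups did not overlap. Tnfrsf12a, the receptor of the cytokine TWEAK, read 9.52, 9.69 and 9.86 against 8.93, 8.81 and 8.71 (-0.87 ± 0.14 SE, adjusted p = 0.00907) and was called in each fit that left out 1 array. Ccn2, connective tissue growth factor, read 12.21, 12.38 and 12.50 against 11.67, 11.81 and 11.90 (-0.57 ± 0.12 SE, adjusted p = 0.0174). Without radiation+FTY replicate 1, Nr4a3, Thbs1 and Ccn2 were not called, nor was Ccn2 without radiation replicate 3, nor Nr4a3 with all probe sets averaged. With the muscle and fat covariates Nr4a3 and Ccn2 were not called, while Thbs1 and Tnfrsf12a were. Thbs1, Tnfrsf12a and Ccn2 were the called decreases among 13 plasminogen, thrombospondin and early matrix genes, whose median was -0.31, where 1.08% of all genes were called lower. Plat (-0.54), Plaur (-0.50), Tnc (-0.55) and Ccn1 (-0.22) did not pass, and Plau differed the other way without a call (0.74, adjusted p = 0.0649).

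The AP-1 and EGR genes, transcription factors switched on early after a stimulus, gave 2 called decreases among 21 genes tested, against 1.08% of all genes called lower. All 21 were lower in the group mean, by a median of 0.38 in size, and 10 did not overlap, against 10.1% of all genes in that direction. Jun read 11.83, 11.92 and 11.94 against 11.28, 11.44 and 11.36, a decrease by 0.54 ± 0.09 SE (adjusted p = 0.00907). Klf6 fell by 0.36 ± 0.09 SE (adjusted p = 0.034), a call lost without radiation replicate 2 or 3 or radiation+FTY replicate 1 or 2. Klf6 was also not called after quantile normalization or with the muscle and fat covariates, while Jun was called in both. The radiation arrays differed among themselves in the other members: Fos read 11.22 on replicate 1 against 12.08 and 11.77, and Egr1 10.95 against 12.12 and 11.94. Neither Fos (-0.60, adjusted p = 0.2) nor Egr1 (-0.36, adjusted p = 0.567) was called. Hspa1a, an inducible heat shock gene, also had a low radiation replicate 1 (8.73, 10.76 and 11.33 against 8.78, 8.71 and 8.60 with FTY720) and missed the test (-1.58, adjusted p = 0.0733).

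**Figure D3:**
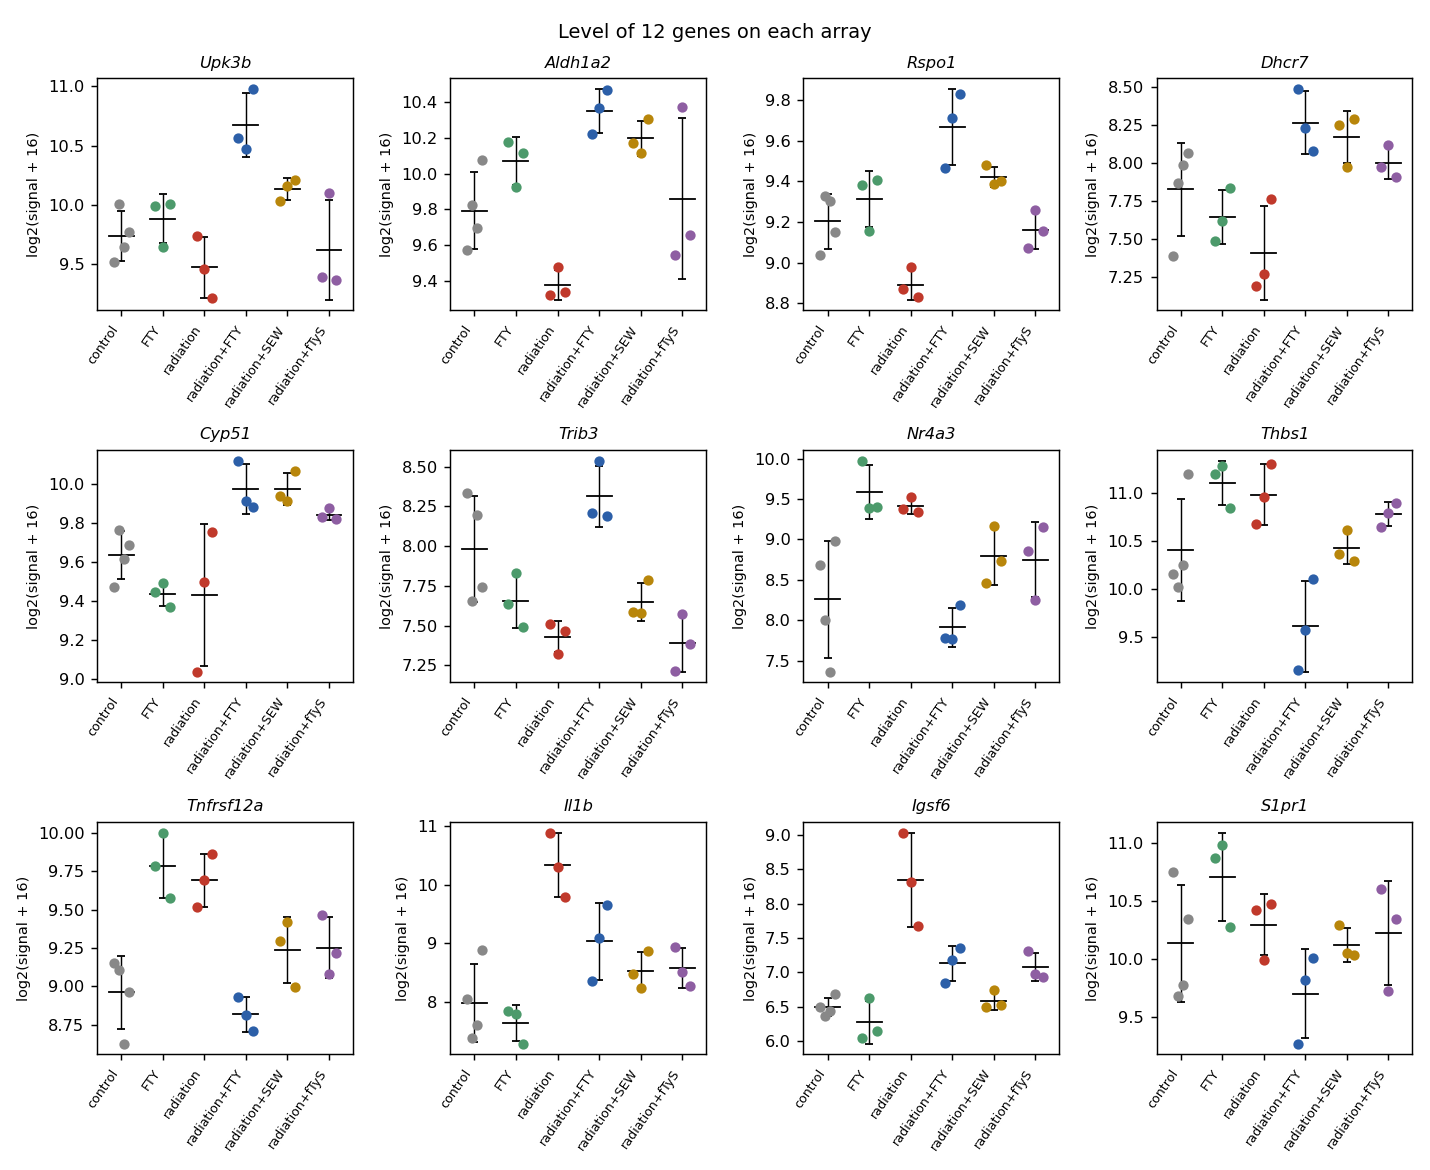
Each panel shows 1 gene; points are arrays, the y axis is log2(signal + 16), bars are group means and whiskers 1 SD (n = 3, control n = 4). Upk3b, Aldh1a2, Rspo1, Dhcr7, Cyp51 and Trib3 are higher on every radiation+FTY array than on every radiation array, Nr4a3, Thbs1, Tnfrsf12a, Il1b and Igsf6 are lower, and S1pr1 overlaps.

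Genes of neutrophils and monocytes were lower with FTY720, with a wide spread on both sides. Of 13 neutrophil genes 3 fell (median -0.94), of 20 monocyte and interstitial macrophage genes 5 fell (median -0.37), and of 17 paired immunoglobulin-like and Fc receptor genes 5 fell (median -0.51); no member of these lists rose, and 1.08% of all genes were called lower. Sirpb1a, Igsf6, Cd300lf and Pirb count in both of the latter. Igsf6, a receptor of myeloid cells, read 9.03, 8.32 and 7.68 on the radiation arrays and 6.85, 7.19 and 7.36 with FTY720 (-1.21 ± 0.27 SE, adjusted p = 0.0259). Il1b, the inflammatory cytokine, read 10.89, 10.31 and 9.80 against 8.35, 9.10 and 9.65 (-1.30 ± 0.35 SE, adjusted p = 0.0496). In both, radiation replicate 1 was highest and radiation+FTY replicate 1 lowest, and the nearest arrays of the groups were close. Sirpb1a read 10.06, 9.44 and 8.75 against 7.41, 8.38 and 8.52, Trem1 7.84, 8.07 and 7.38 against 6.38, 6.79 and 7.32, and Pirb 10.03, 9.36 and 8.87 against 8.24, 8.56 and 8.68. These receptors of innate immune cells fell by 1.31, 0.94 and 0.93. Stfa2l1, a stefin of neutrophils, fell by 1.83 ± 0.49 SE (adjusted p = 0.0496) and Clec4d, a C-type lectin, by 1.41 ± 0.35 SE (adjusted p = 0.0353), though for both the highest radiation+FTY array passed the lowest radiation array. The neutrophil genes S100a8 (-0.77, adjusted p = 0.33) and S100a9 (-0.95, adjusted p = 0.303) were not called. The complement genes C1qa (0.35), C1qb (0.54) and C1qc (0.34) lay on the other side of 0, without a call.

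Array by array, the neutrophil mean was 10.44, 10.13 and 9.54 without FTY720 and 8.68, 9.196 and 9.71 with it. The highest treated array was above the lowest untreated one, and all 6 were above the control arrays (7.68 to 8.43). Without radiation replicate 1 or 2, or without radiation+FTY replicate 1 or 2, none of Igsf6, Il1b, Sirpb1a, Trem1, Pirb, Stfa2l1 and Clec4d was called; their fold changes kept a negative sign in each such fit. With the muscle and fat covariates no gene of these 3 lists was called, while the medians were -0.81 for the neutrophil, -0.26 for the monocyte and -0.41 for the paired immunoglobulin-like list. Sirpb1a, Pirb and Stfa2l1 belong to families of near-identical genes, whose probe sets may take up RNA of relatives, and another probe set of Ms4a6c (fall of the named one by 0.86) gave 0.11.

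Of the 5 S1P receptor genes 4 were tested and none was called. S1pr1 read 10.42, 9.99 and 10.47 on the radiation arrays and 9.27, 9.82 and 10.01 with FTY720, which overlap (-0.60 ± 0.28 SE, adjusted p = 0.208). S1pr3 (0.10) and S1pr4 (0.01) were near 0, as was S1pr2 (-0.14), whose product does not bind phosphorylated FTY720, and S1pr5 did not pass the filter on dim genes. Without radiation S1pr3 was lower in FTY than in control (10.85, 10.90 and 10.65 against 10.92, 11.21, 11.36 and 11.41; -0.42 ± 0.10 SE, adjusted p = 0.0254). Endothelial markers had a median of -0.20 over 20 genes, with 17 lower in the group mean and none called. Among 11 genes that make, break down or carry S1P, Plpp1, a lipid phosphate phosphatase, fell (11.95, 11.56 and 11.49 against 11.04, 11.12 and 11.24, by 0.53 ± 0.13 SE, adjusted p = 0.0304). The kinases Sphk1 (-0.28) and Sphk2 (0.20), the lyase Sgpl1 (0.14) and the exporter Spns2 (-0.04) were not called. Of 22 ceramide and sphingomyelin genes 2 fell, where 1.08% of all genes were called lower: Cert1, the ceramide transfer protein (-0.35 ± 0.06 SE, adjusted p = 0.0107), and Asah1, acid ceramidase (-0.27 ± 0.06 SE, adjusted p = 0.0214). Cert1 read 11.36, 11.30 and 11.36 against 10.98, 10.89 and 11.08, and was called in each fit that left out 1 array, but not when all probe sets were averaged; its other probe sets gave -0.07 and -0.32. Plpp1 and Asah1 were not called without radiation replicate 1 or radiation+FTY replicate 1, nor Plpp1 without radiation+FTY replicate 2, nor Asah1 without radiation replicate 3.

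Single genes of other pathways changed, while 1.94% of all genes tested were called higher and 1.08% lower. Trib3, a pseudokinase induced under amino acid and endoplasmic reticulum stress, read 7.51, 7.32 and 7.46 against 8.21, 8.54 and 8.19. It rose 1.84-fold (0.88 ± 0.15 SE, adjusted p = 0.0106) with no overlap and with the call kept in each fit that left out 1 array; another probe set gave 0.38. Of the 13 unfolded protein response genes it belongs to, only Pdia4 was called as well (0.37 ± 0.09 SE, adjusted p = 0.048), and a second probe set of Pdia4 gave -0.02. Ddit3 (0.17), Atf4 (-0.13), Asns (0.19) and Chac1 (0.09) were not called. Gsta2, a glutathione transferase, rose 2.33-fold (8.70, 8.70 and 8.53 against 9.91, 10.13 and 9.55; 1.22 ± 0.32 SE, adjusted p = 0.0435), the only called gene of 17 in the oxidative stress list. Pon1, a paraoxonase, fell 2.00-fold (10.70, 11.01 and 11.16 against 9.69, 10.01 and 10.17; -1.0 ± 0.18 SE, adjusted p = 0.0107). With Cyp2f2 (-0.26), Scgb3a2 (-0.11) and Aldh1a1 (-0.12), it made up the 4 called decreases among 15 airway secretory genes; Gsta2 is on that list as well and was its 1 called increase, and the list median was 0.04. In the TGF-beta and BMP list of 23, the feedback inhibitor Pmepa1 (0.35 ± 0.06 SE, adjusted p = 0.00907) and the BMP antagonist Chrdl1 (0.66 ± 0.12 SE, adjusted p = 0.0107) rose and the receptor Tgfbr2 (-0.22, adjusted p = 0.0477; 0.01 by another probe set) fell. Nol3, an inhibitor of apoptosis with high levels in muscle, rose by 1.07 ± 0.25 SE. The retinoid gene Dhrs3 rose (0.31, adjusted p = 0.0492), and Cd9, counted among alveolar macrophage genes, fell (-0.30, adjusted p = 0.03), a call lost without replicate 1 of either group. Gsta2, Nol3, Tgfbr2, Scgb3a2, Aldh1a1 and Dhrs3 lost the call without each of 5 arrays in turn and Pdia4 without each of the 6, and Pon1, Cyp2f2 and Chrdl1 lost the call without radiation+FTY replicate 1.

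The p53 target and DNA damage list had a median of -0.02 over 23 genes; Mdm2 fell (-0.36 ± 0.08 SE, adjusted p = 0.0276), Sesn1 rose (0.39 ± 0.10 SE, adjusted p = 0.0496) and Cdkn1a was near 0 (-0.13, adjusted p = 0.875). Both calls were lost without each of 5 arrays in turn, the other probe sets of Sesn1 gave 0.12, 0.08 and -0.11, and the other probe set of Mdm2 gave -0.06; with all probe sets averaged neither gene was called. All 14 B cell genes were higher in the group mean, by a median of 0.85, but none was called, and the list mean of radiation replicate 1 was low (6.83, against 7.96 and 8.37, and 8.71, 8.51 and 8.32 with FTY720). No gene was called among the 11 T cell, 10 alveolar type 1, 13 alveolar type 2, 22 collagen and matrix, 16 interferon-induced, 16 barrier junction, 22 cell cycle or 17 circadian clock genes tested.

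**Figure D4:**
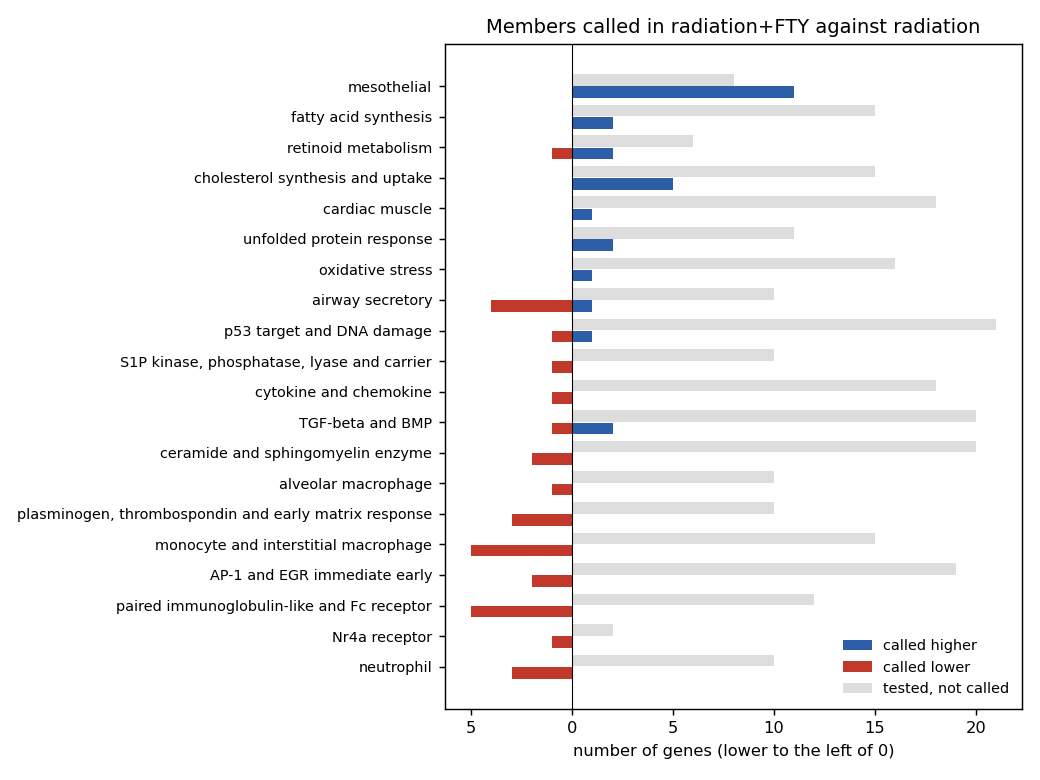
For each gene list with at least 1 called gene, the blue bar counts members called higher in radiation+FTY than in radiation, the red bar (left of 0) members called lower, and the grey bar tested members not called. The mesothelial list has 11 blue members and the monocyte and the paired immunoglobulin-like lists 5 red ones each; lists are ordered by their median log2 fold change.

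The other 2 compounds, at the same dose and schedule, gave 2 comparisons that share the radiation+FTY arrays. SEW-2871 is a selective S1pr1 agonist that is not built on the sphingosine frame, and (S)-FTY-phosphonate carries a phosphonate in place of the phosphate that FTY720 acquires in the body. Between radiation+FTY and radiation+SEW limma called no gene; 1036 genes were at an unadjusted p under 0.05, and groups were apart for 15.4%. This does not show that the compounds act alike: the 95% confidence intervals of the difference ran from 0.08 to 0.999 for Upk3b, from -1.34 to -0.29 for Thbs1, from -1.50 to -0.25 for Nr4a3 and from -0.26 to 0.26 for Cyp51. Trib3 read 7.58, 7.58 and 7.79 with SEW-2871, below each radiation+FTY array, and its difference of 0.66 ± 0.15 SE had an adjusted p of 0.344.

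Between radiation+FTY and radiation+fTyS 273 genes were higher and 238 lower with FTY720 (2.11% and 1.84% of genes tested, 3.95% in all). The split was 375 to 204 after quantile normalization and 231 to 134 after median centring. It turned to 226 higher and 360 lower with all probe sets averaged. Without radiation+FTY replicate 3 it was 226 to 386, and without radiation+fTyS replicate 1 it was 1 to 5. More were higher than lower without each of the other arrays of these 2 groups. Among the higher were 5 mesothelial genes, Upk3b (1.05 ± 0.22 SE, adjusted p = 0.0183), Bnc1 (0.98 ± 0.24 SE, adjusted p = 0.0295), Wt1 (0.97 ± 0.25 SE, adjusted p = 0.0341), Rspo1 (0.51 ± 0.10 SE, adjusted p = 0.0157) and Nkain4 (0.47 ± 0.11 SE, adjusted p = 0.0233). The radiation+fTyS arrays were uneven in them: Upk3b read 9.39, 10.10 and 9.36, and replicate 2, the high one, also had the highest skeletal muscle mean of its group, 10.92 against 6.45 and 7.86. Thbs1 was lower with FTY720 (-1.16 ± 0.25 SE, adjusted p = 0.0193; 10.64, 10.79 and 10.89 with the phosphonate), as was Jun (-0.48 ± 0.09 SE, adjusted p = 0.0127), 1 of 5 AP-1 and EGR genes called lower. Trib3 was higher with FTY720 (0.92 ± 0.15 SE, adjusted p = 0.00749). Largest in size were Myh7, a myosin gene on the cardiac list (2.69 ± 0.61 SE, adjusted p = 0.0245), and Ankrd63 (1.39 ± 0.34 SE), and, on the lower side after Thbs1, Slc26a4 (-0.97 ± 0.27 SE), Megf11 (-0.85 ± 0.15 SE, with the radiation+FTY arrays below 6.49), Thoc2l (-0.79 ± 0.11 SE) and Angptl1 (-0.70 ± 0.19 SE). Myh7 was the 1 called gene of the 19 cardiac markers, of which 8 were higher and 11 lower (median -0.31). All 19 skeletal muscle genes were higher (median 1.61), with no call. No sterol gene was called against either compound: the interval for Dhcr7 ran from -0.27 to 0.46 against SEW-2871 and from -0.10 to 0.62 against the phosphonate. Neutrophil genes were not called in either comparison, with medians of 0.90 and 0.79 higher in radiation+FTY. Fits of only the 6 arrays compared called no gene against the phosphonate. Without radiation+fTyS replicates 1, 2 and 3 in turn 6, 932 and 198 genes were called. Without radiation+FTY replicates 1, 2 and 3 they were 17, 48 and 612.

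FTY720 without radiation (FTY against control) shares no array with the main comparison. It raised 62 genes and lowered 291 (0.479% and 2.25% of genes tested, 2.73% in all; 87 and 179 after quantile normalization, 50 and 106 after median centring). Without control replicates 1, 2 and 3 in turn 620, 151 and 37 genes were called, and without FTY replicates 1 and 3 they were 96 and 35. Of the 251 genes that rose with FTY720 after radiation, 181 (72.1%) were lower in the FTY than in the control mean, where 53.7% of all genes were. Of the 140 that fell, 89 (63.6%) were higher, where 46.2% of all genes were. These shares were not recomputed on other scalings. Quantile normalization moved the all-gene median from 0.025 to -0.0065 in radiation+FTY against radiation, and from -0.014 to 0.0057 in FTY against control. Nr4a3 moved in opposite directions. It read 9.97, 9.39 and 9.40 on the FTY arrays and 8.68, 8.01, 7.37 and 8.98 on the control arrays, a rise by 1.33 ± 0.28 SE (adjusted p = 0.0194). Tnfrsf12a also rose without radiation (9.78, 10.001 and 9.57 against 9.15, 9.11, 8.63 and 8.96; 0.82 ± 0.13 SE, adjusted p = 0.00569), while Pmepa1 fell by 0.33 ± 0.06 SE (adjusted p = 0.0067). For each of these 3 genes the sign was the reverse of that after radiation.

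**Figure D5:**
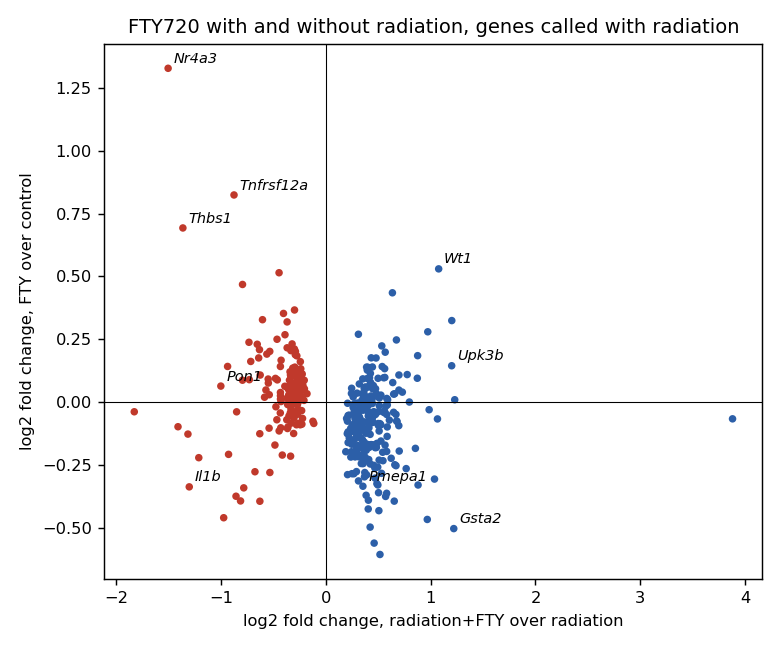
Each of the 391 genes called after radiation is a point, with the log2 fold change of radiation+FTY over radiation on the x axis and that of FTY over control on the y axis. Blue points rose and red points fell after radiation; Nr4a3, Tnfrsf12a and Thbs1 lie at the upper left.

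The interaction, the difference between the effect of FTY720 with and without radiation, was called for 885 genes (6.84%), 617 higher (4.77%) and 268 lower (2.07%). That split turned with the scaling, to 358 and 407 after quantile normalization and 268 and 403 after median centring. Without single arrays 441 to 1165 genes were called, the fewest without radiation+FTY replicate 2. Nr4a3 (-2.83 ± 0.41 SE, adjusted p = 0.00171), Tnfrsf12a (-1.70 ± 0.19 SE, adjusted p = 0.000296) and Thbs1 (-2.06 ± 0.34 SE, adjusted p = 0.00364) were among the lower. Among the higher were 7 mesothelial genes, with Fras1 (1.34 ± 0.27 SE, adjusted p = 0.00856) and Upk3b (1.06 ± 0.30 SE, adjusted p = 0.0409) as examples, and 4 sterol genes, with Dhcr7 (1.04 ± 0.24 SE, adjusted p = 0.0154). Without control replicate 4 the values were -3.07 for Nr4a3, -2.32 for Thbs1, -1.70 for Tnfrsf12a and 1.34 for Fras1, each called, and 1.04 for Upk3b (adjusted p = 0.057). Without FTY replicate 3 they were -2.93, -2.19, -1.80 and 1.24, each called, and 1.12 (adjusted p = 0.0506).

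The 5 largest called interactions on the higher side were those of Dbp (3.51 ± 0.66 SE, adjusted p = 0.00681), Prdm8 (2.11 ± 0.36 SE, with the FTY arrays below the filter level of 6.49), Per3 (1.78 ± 0.41 SE), Gsta2 (1.72) and Hlf (1.56 ± 0.38 SE). On the lower side they were the heat shock genes Hspa1a (-3.50 ± 0.67 SE) and Hspa1b (-2.90 ± 0.64 SE), then Nr4a3, Nfil3 (-2.50 ± 0.65 SE) and the immunoglobulin gene Igha (-2.31). Dbp, Per3, Hlf and Nfil3 belong to the daily clock or its output. Dbp, a clock-controlled transcription factor, read 7.76, 9.02 and 8.26 on the FTY arrays, 10.16 to 11.70 on the controls, 10.95, 9.87 and 10.01 after radiation and 11.19, 11.06 and 11.04 with FTY720 after it. In FTY against control 6 of 17 clock genes fell and 2 rose, where 2.25% of all genes were called lower and 0.479% higher. None was called in radiation+FTY against radiation. The hour of collection was not given, and hour and treatment cannot be told apart in the FTY group. Immunoglobulin genes Iglv1 (2.48 ± 0.61 SE), Jchain (2.46 ± 0.55 SE), Igkv9-120 (2.06 ± 0.52 SE) and Igha (1.88 ± 0.47 SE) were higher and Ccn1 (-1.26 ± 0.23 SE) and Gm6958 (-1.89 ± 0.42 SE) lower in FTY than in control; without FTY replicate 3 none of the 4 immunoglobulin genes was called.

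Against the control arrays, radiation+FTY had 634 genes higher (4.90%) and 572 lower (4.42%, 9.32% in all; 748 and 407 after median centring). Without radiation+FTY replicate 1 there were 147 calls, and without control replicates 1, 2, 3 and 4 there were 751, 620, 487 and 1565. The split turned to 715 higher and 850 lower without control replicate 4. More were also lower than higher without control replicate 1 or radiation+FTY replicate 1 or 3. Without each of the other arrays of these 2 groups more were higher. Myeloid genes were above control: 7 of 13 neutrophil genes were called higher, with a median of 1.23, among them S100a9 (2.14 ± 0.51 SE, adjusted p = 0.0169) and Stfa2l1 (1.98 ± 0.46 SE, adjusted p = 0.0154). Stfa2l1 lay below the filter level of 6.49 on control replicates 1, 2 and 3 and passed it through other arrays, so the size of its difference is not well set. Also above control were 7 mesothelial genes, such as Upk3b (0.94 ± 0.21 SE, adjusted p = 0.0112) and Wt1 (1.05 ± 0.23 SE, adjusted p = 0.0111). Nr4a3 was not called (-0.35 ± 0.28 SE, adjusted p = 0.437), Thbs1 was below control (-0.79 ± 0.23 SE, adjusted p = 0.0406) and so was Jun (-0.50 ± 0.08 SE, adjusted p = 0.00179). Sterol genes were not called (median 0.17). Among the largest in size were Myl2 (3.82 ± 0.97 SE, with the control arrays below 6.49), Orm1 (2.56 ± 0.79 SE) and Iglv1 (2.43 ± 0.61 SE) above control, and Aplnr, the apelin receptor of endothelium (-1.63 ± 0.30 SE), Gprin3 (-1.26 ± 0.15 SE), Aox3 (-1.14 ± 0.19 SE), Krt79 (-1.12 ± 0.25 SE) and Slc4a5 (-1.12 ± 0.22 SE) below it.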

How the data were processed

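The authors deposited 1 linear intensity per probe set and array, made with GCOS per the submitters' processing notes; its version, summary method and scaling are not given in the sources used here. Of 45101 probe sets, those with 1 gene symbol (34945) were kept, intensities became log2(signal + 16), and each of 18193 genes was represented by its brightest probe set. Genes at or below the 40th percentile of mean level (6.49) were left out. One limma 3.58.1 fit (R 4.3.3; 8 group means, 25 arrays, 17 residual degrees of freedom, eBayes with trend, two-sided, Benjamini-Hochberg within a comparison) gave every fold change, SE and adjusted p. Precision is limited by how few arrays there are. The code was tested on simulated data.

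Named genes are the 10 largest increases and 10 largest decreases among calls without overlap between groups (5 and 5 in other comparisons), up to 6 called members of a list, and genes of S1P handling, Nr4a receptors and cholesterol synthesis; further members and Hspa1a, Fos, Egr1 and the like were chosen after their values were seen, to show the rest of a list. The 44 lists (762 entries, 649 tested; a gene can be in several) and the comparison were chosen with earlier results of these data known. Alternatives were other scalings, offsets, filters, probe set rules, weights, covariates, a replicate block and leaving out arrays; the cardiac muscle covariate was chosen after seeing the data.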

Additional observations from a re-analysis of the deposited data

Results flagged for a closer look

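For 17 named genes the response to FTY720 differed with and without radiation, by limma's interaction term at an adjusted p of at most 0.05. Higher after radiation than without it were the effects on Dbp (3.51), Prdm8 (2.11), Per3 (1.78), Gsta2 (1.72), Hlf (1.56), Fras1 (1.34), Lrrn4 (1.22) and Upk3b (1.06). Lower were those on Hspa1a (-3.50), Hspa1b (-2.90), Nr4a3 (-2.83), Nfil3 (-2.50), Igha (-2.31), Thbs1 (-2.06), Tnfrsf12a (-1.70), Trem1 (-1.08) and Pon1 (-1.06). Igha was not called without FTY replicate 3 (adjusted p = 0.0835), and Lrrn4 (0.0675) and Upk3b (0.057) were not called without control replicate 4.

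Among the 4 control arrays, 1 stood far from the other 3 for 2 of 51 genes looked at, where chance alone gives about 1 in 20. Stfa2l1 read 7.23 on control replicate 4 against 6.08 to 6.198, and Pmepa1 read 10.80 on replicate 2 against 10.92 to 10.93.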

How the results depend on the processing

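For radiation+FTY against radiation, 391 genes were called. The count moved by over 1.5 times when all probe sets of a gene were averaged (184) and with array weights (1249), only the arrays compared (6), muscle and fat covariates (100) and the mesothelial covariate (21), and ran from 38 to 472 when 1 array was left out. Of 51 called genes followed (the 20 largest changes and 31 list members), 42 lost the call without some array, 36 with the muscle and fat covariates, 50 with the mesothelial one, 14 with the cardiac one, 6 with quantile normalization, 10 with median centring and 26 with all probe sets averaged (where another 2, Fras1 and Trem1, fell below the filter on dim genes). The fold changes kept their sign in each of these fits except that of Bnc1 with the mesothelial covariate (-0.041). That covariate is the mean of the tested mesothelial genes, Bnc1 among them, and it set every radiation array below every radiation+FTY array. Its fit can hardly tell the group difference from the covariate, so calls lost in it do not show whether a call is stable. Of the 51 genes, called in each fit that left out 1 array were Upk3b, Aldh1a2, Rspo1, Nkain4, Tnfrsf12a, Jun, Trib3, Cert1 and Pmepa1. Cert1 and Pmepa1 were not called with all probe sets averaged.

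Against radiation+SEW (0 called), no filter gave 1, array weights 4, the muscle and fat covariates 3, the mesothelial covariate 4, and fits without 1 array 0 to 4. Against radiation+fTyS (511), the values were 329 with no filter, 2500 with array weights, 0 with only the arrays compared, 128 with the mesothelial covariate, 785 with the cardiac covariate, and 6 to 932 without 1 array. FTY against control (353) gave 156 with median centring, 958 with array weights, 1 with only the arrays compared, 149 with the muscle and fat covariates, and 35 to 620 without 1 array. The interaction (885) gave 522 when probe sets were averaged, 1741 with array weights, 375 with only the arrays compared, 426 with the mesothelial covariate, and 441 to 1165 without 1 array. Radiation+FTY against control (1206) gave 19 with only the arrays compared, 759 with the muscle and fat covariates, 116 with the mesothelial covariate, and 147 to 1565 without 1 array. Fewer arrays or genes, or a covariate made from tested genes, are part of the construction of some of these fits. Beyond that the cause was not tested.

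Replicate numbers did not pair the arrays: residuals of same-numbered radiation and radiation+FTY arrays correlated at -0.31, -0.43 and -0.17, and for 7 of 25 arrays the best match carried the same number. With the replicate number as a block, 333 genes were called in the main comparison, and 0, 499, 346, 768 and 1513 in the others, in the order above. With 3 arrays a group, differences within about 0.222 of the estimate cannot be resolved for a typical gene.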
